A study of Mus musculus with 3 samples.

Results

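The windows described here were stretches of 2 kb of the mouse genome that were called for H3K27me3 and for no other mark in fully-grown germinal vesicle (GV) oocytes, which are at the end of their growth and whose nucleus has not yet broken down. A window belonged to them when it was called for H3K27me3 and not for H3K4me3, and when its H3K36me3 level, averaged over 3 replicates, was 1 RPKM or less. RPKM is the authors' name for the deposited values, which are reads scaled to library depth. Judged by the value of 1 read, they appear not to be scaled to window length as well. In all, 218973 of 1186323 valid windows met this rule, which is 18.5% of the valid windows. They are called H3K27me3 alone windows below. H3K36me3 was measured by native ChIP-seq for very small cell numbers, in which chromatin is cut with micrococcal nuclease and pulled down without cross-linking. The 3 replicates were pools of about 280 oocytes from wildtype C57BL6/Babr mice at 25 days of age and formed 1 group, with no treatment and no control group. The H3K27me3 and H3K4me3 calls came from libraries made earlier by the same laboratory, and each window carries a single call without replicates. The H3K36me3 level and these calls chose the windows, so their values are given as a description.

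H3K27me3 is written by Polycomb repressive complex 2, with Ezh1 or Ezh2 as its catalytic subunit, and marks genes that are kept silent. In most cell types it is found over CpG islands of developmental genes, whereas in growing oocytes it also spreads over broad intergenic regions and over bodies of genes that are not transcribed. H3K36me3 is laid down by Setd2 behind elongating RNA polymerase, marks transcribed gene bodies, and hinders Polycomb repressive complex 2 on the same histone tail. Some maternal H3K27me3 domains persist into the embryo and silence the maternal allele of genes such as Sfmbt2 and Gab1, which is known as noncanonical imprinting.

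The DNA beneath these windows is shown first, because their CpG content differed from that of windows with other marks. The central 200 bases of the 3 longest unbroken runs are given on the plus strand of GRCm38, taken from the RefSeq genome, with each CpG in capitals. Run 1 is from chr11:43947901-43948100 and lies between genes, run 2 is from chr17:75322901-75323100 within Ltbp1, and run 3 is from chr12:106952901-106953100 and lies between genes.
Run 1: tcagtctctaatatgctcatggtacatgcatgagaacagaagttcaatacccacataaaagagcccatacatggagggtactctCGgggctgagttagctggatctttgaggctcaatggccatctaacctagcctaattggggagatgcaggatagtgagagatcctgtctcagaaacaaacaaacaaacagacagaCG
Run 2: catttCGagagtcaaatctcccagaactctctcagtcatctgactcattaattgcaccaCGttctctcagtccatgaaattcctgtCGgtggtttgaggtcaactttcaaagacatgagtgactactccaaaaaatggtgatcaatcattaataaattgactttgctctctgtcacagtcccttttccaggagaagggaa
Run 3: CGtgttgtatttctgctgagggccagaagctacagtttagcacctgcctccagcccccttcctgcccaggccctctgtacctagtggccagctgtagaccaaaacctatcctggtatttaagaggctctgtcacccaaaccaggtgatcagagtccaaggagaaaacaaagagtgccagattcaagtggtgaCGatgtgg
These stretches held 2, 3 and 2 CpG. Over the whole runs, a window held 13.4, 18.8 and 21.4 CpG on average, against 16.6 in all valid windows.

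The opposite end of the range is shown by the 2 H3K27me3 alone windows with the most CpG. The first stretch is chr11:82932901-82933100, where Unc45b and the noncoding Unc45bos overlap, and the second is chr15:76178901-76179100 in Plec, the gene of the cytoskeletal linker plectin. Both are on the plus strand.
Window at Unc45b: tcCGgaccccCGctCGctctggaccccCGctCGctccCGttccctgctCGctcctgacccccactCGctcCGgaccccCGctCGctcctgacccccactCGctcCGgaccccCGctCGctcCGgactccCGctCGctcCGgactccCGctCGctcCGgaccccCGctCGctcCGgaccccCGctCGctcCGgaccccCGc
Window at Plec: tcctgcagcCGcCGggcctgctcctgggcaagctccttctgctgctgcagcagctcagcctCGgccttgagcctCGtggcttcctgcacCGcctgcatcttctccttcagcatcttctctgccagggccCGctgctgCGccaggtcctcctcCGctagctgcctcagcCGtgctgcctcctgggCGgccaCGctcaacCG
The Unc45b stretch held 29 CpG and the Plec stretch 12 CpG, and their windows held 208 and 125. Windows of this kind were rare among H3K27me3 alone windows. Of the 5257 valid windows with 100 or more CpG, which were 0.443% of all valid windows, 6 were H3K27me3 alone. That is 0.114% of the CpG-rich windows. By contrast, 1736 of them (33.0%) were called for H3K4me3 and H3K27me3 and 2210 (42.0%) for H3K4me3 alone.

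On average an H3K27me3 alone window held 14.7 CpG, fewer than windows with H3K4me3 and H3K27me3 (27.8) or with H3K4me3 alone (19.1) and more than windows without a mark (11.1). The same order was seen for GC content, at 41.8% for H3K27me3 alone, 46.3% with both marks, 42.4% with H3K4me3 alone and 38.9% without a mark. Interspersed repeats and low-complexity DNA, which are soft-masked in the reference, covered 24.4% of the bases of H3K27me3 alone windows and 46.3% of the bases of windows without a mark. Windows of the same genome are not replicates, and no test was made on sequence.

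The H3K36me3 level of the H3K27me3 alone windows was 0.391, 0.346 and 0.257 RPKM in replicates 1, 2 and 3, which gives a mean of 0.331 ± 0.068 (SD, n = 3). All 3 values lay below the threshold of 1, which the rule fixes for the mean. Within single replicates, 3.35%, 10.4% and 8.38% of the windows were above 1 in replicates 1, 2 and 3, and 79.3% were at 1 or less in each replicate. These shares have to be read beside the depth. Replicate 1 had 7888140 reads in valid windows, replicate 2 had 2692510 and replicate 3 had 3166564, so that a value above 1 took 8 reads in replicate 1 and 3 reads in the other two. The median number of reads per H3K27me3 alone window was 3 in replicate 1 and 0 in the other two. At this depth H3K36me3 could not be measured in a single window, and the means below were taken over many windows. Replicate 2 was also made with less antibody.

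H3K27me3 was also called together with H3K4me3, in 106063 windows without and 6132 windows with H3K36me3, and the rule leaves these out. Of 243377 windows with H3K27me3 and without H3K4me3, 89.97% were H3K27me3 alone and the others were called for H3K36me3 as well. Close to the threshold, 4312 windows with a mean between 0.9 and 1 lay just inside and 3234 windows with a mean between 1 and 1.1 lay just outside. The levels just inside were 0.794, 1.13 and 0.916 RPKM in replicates 1, 2 and 3, and those just outside were 0.867, 1.25 and 1.03. In both sets replicate 2 was the highest and replicate 1 the lowest. Their genic shares were 46.3% and 48.5%, which were alike in size.

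How far membership held in data that had not chosen it was measured by leaving out each replicate. Windows with H3K27me3 and without H3K4me3 were picked with a mean of 1 or less in a pair of replicates, and the remaining replicate was then read. In the replicate left out, 95.8%, 87.6% and 89.9% of them were at 1 or less, when replicates 1, 2 and 3 were read in turn. Windows of the same marks with a mean above 1 in the pair were at 1 or less in 42.5%, 42.8% and 40.1% of cases. Over all valid windows, whatever their marks, 90.6%, 85.8% and 85.9% of those picked at 1 or less were at 1 or less in the replicate left out, which is close to the shares of the H3K27me3 windows. The level of the picked windows in the replicate left out was 0.402, 0.385 and 0.289 RPKM. In windows with neither H3K27me3 nor H3K4me3, picked in the same way, it was 0.464, 0.401 and 0.401 RPKM. The H3K27me3 windows had the lower level in 3 of 3 replicates, with a log2 ratio of -0.24 ± 0.21 (SD, n = 3). A two-sided exact test that flips the sign of each replicate's ratio, a permutation test, gave p = 0.25, the smallest p that 3 replicates allow, and 0.25 after Benjamini-Hochberg adjustment over the 3 held-out tests of this report. The direction turned when windows were picked at a threshold of 0.5, with a log2 ratio of 0.23, so no order of the 2 kinds of window is drawn from it. Part of the values in windows without a mark are at 0 in all replicates: 13.2% of those windows had no read in any replicate, against 3.85% of H3K27me3 alone windows.

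H3K27me3 alone windows ran together into 77901 runs, a run being a stretch of such windows placed end to end. The median run was 4 kb and the mean 5.62 kb. Of the runs, 49.3% were a single window, and these held 17.5% of the windows. Runs of 5 or more windows, or at least 10 kb, numbered 11611 and held 49.3% of the windows. The same share was 25.2% for windows with H3K4me3 and H3K27me3, 29.6% for H3K4me3 alone, 36.3% for windows without a mark and 71.8% for H3K36me3 alone. Of the categories without H3K36me3, H3K27me3 alone had the longest runs, with 719 runs of 20 or more windows and a longest run of 172 kb. For the other 3, the longest was 46 kb with H3K4me3 and H3K27me3, 58 kb with H3K4me3 alone and 84 kb without a mark.

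Run length depended on the rule that ends a run. When up to 5 windows of other categories without H3K36me3, or windows that were not valid, were bridged, 83.2% of the windows lay in runs of 5 or more and the longest was 582 kb. With a level of 1 or less required in each replicate, the values were 32.6% and 66 kb.

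Windows in longer runs differed from windows that stood alone in genic share and in sequence, which the rule did not use. Windows that stood alone had a genic share of 35.9%, windows in runs of 5 to 9 a share of 39.9%, and windows in runs of 20 or more a share of 51.4%. CpG per window rose along the same classes from 13.2 to 17.3 and GC content from 41.0% to 43.5%, while soft-masked bases went from 27.2% down to 20.6%. The median distance to the nearest H3K36me3 window was 18 kb for single windows and 62 kb for runs of 20 or more. The H3K36me3 level was 0.380 ± 0.073 RPKM (SD, n = 3) in single windows and 0.301 ± 0.070 in the longest class, and the longest class was the lower in each replicate. Level and distance are tied to the rule. Genic share is tied to it indirectly, since the windows with H3K36me3 that it leaves out were more often genic. None of these differences was tested.

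**Figure D1:**
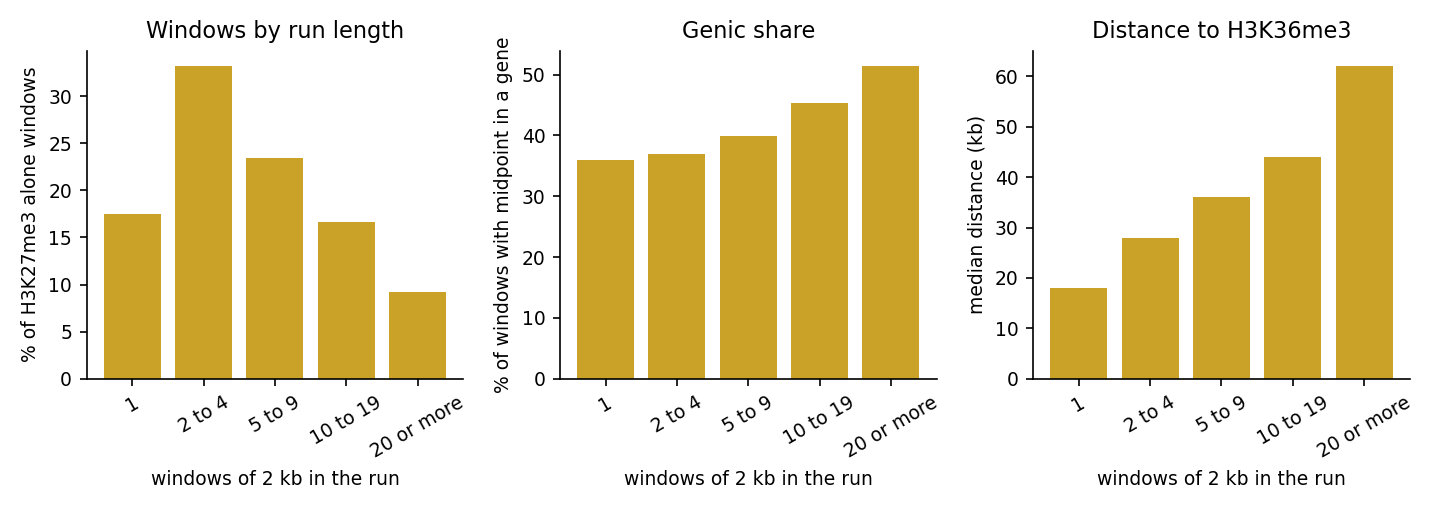
H3K27me3 alone windows by the length of the run they lie in, counted in windows of 2 kb. The bars give the share of all H3K27me3 alone windows (left, %), the share with the window midpoint in an annotated gene (middle, %) and the median distance to the nearest H3K36me3 window (right, kb). The genic share goes from 35.9% to 51.4% and the distance from 18 kb to 62 kb between single windows and runs of 20 or more.

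What adjoined the runs was counted at both ends. Of the run ends, 49.6% met a window without a mark and 31.9% a window with H3K4me3 and H3K27me3. A window with H3K36me3 and H3K27me3 followed at 6.13% of the ends and a window with H3K36me3 alone at 1.53%. H3K36me3, with or without other marks, is called in 31.8% of all valid windows. Among the runs of 5 or more windows the ends met H3K36me3 alone in 0.345% of cases and the combination of H3K36me3 and H3K27me3 in 7.47%. A run between H3K36me3 windows on both sides was seen in 2.60% of cases, and 12.6% of the runs had H3K36me3 on a single side.

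The median distance from an H3K27me3 alone window to the nearest window with a mean above 1 RPKM was 34 kb, measured between window edges. It was 14 kb for windows with H3K4me3 and H3K27me3, 6 kb for H3K4me3 alone and 18 kb for windows without a mark. Without replicate 1 or without replicate 3, the median for H3K27me3 alone was 18 kb, so the value of 34 kb depends on those 2 replicates. Requiring more than 1 RPKM in each replicate for the H3K36me3 window gave a median of 86 kb, and a run of 3 or more H3K36me3 windows gave 108 kb. With the latter, the medians were 32 kb, 22 kb and 78 kb for the other 3 categories in the same order. H3K27me3 alone had the largest median of the 4 under each of these rules with all 3 replicates.

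Of the H3K27me3 alone windows, 5.72% adjoined an H3K36me3 window, 13.6% lay less than 10 kb away without adjoining, 43.9% lay 10 to 50 kb away, 34.2% lay 50 to 200 kb away and 2.61% lay 200 kb away or more. The farthest was chr8:20840001-20842000, at 916 kb. Genic and intergenic H3K27me3 alone windows had the same median of 34 kb.

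The H3K36me3 level fell off with this distance. Windows that adjoined an H3K36me3 window had 0.653, 0.473 and 0.492 RPKM in replicates 1, 2 and 3. Windows at 10 to 50 kb had 0.382, 0.345 and 0.246 RPKM, and windows at 200 kb or more had 0.304, 0.297 and 0.195 RPKM. In each replicate the farthest class was below the adjoining class. Since distance and level come from the same reads, the comparison was repeated with windows and distances from a pair of replicates and levels from the remaining replicate. Windows less than 10 kb from H3K36me3 then had 0.498, 0.513 and 0.390 RPKM, and windows 50 kb or more away had 0.330, 0.333 and 0.215 RPKM. The 2 sets of values did not overlap. The near windows were higher in 3 of 3 replicates, with a log2 ratio of 0.69 ± 0.14 (SD, n = 3) and the same exact permutation test gave p = 0.25, its lower limit (0.25 after adjustment). With 3 replicates this permutation test cannot reach 0.05, whatever the size of the difference.

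**Figure D2:**
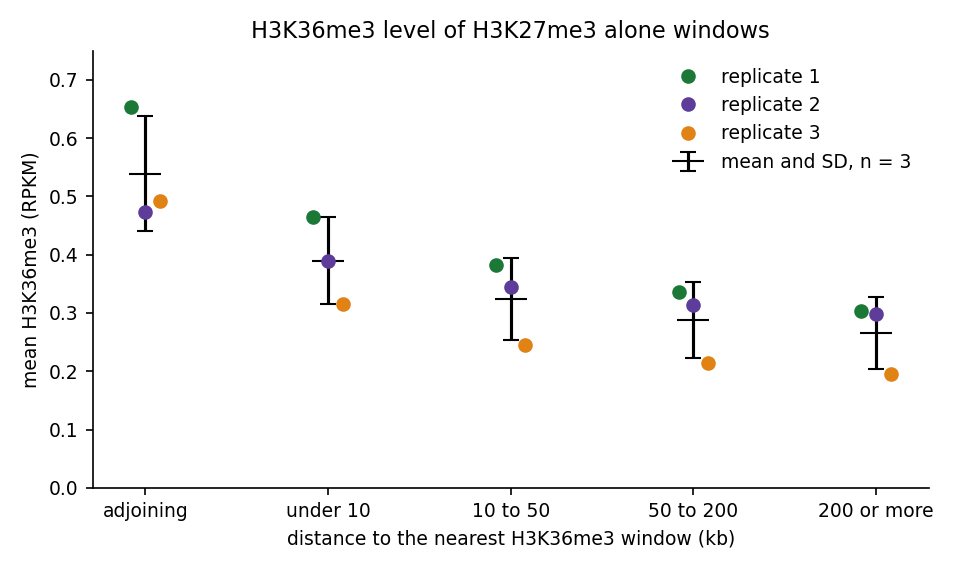
Mean H3K36me3 (RPKM, linear axis from 0) of H3K27me3 alone windows by distance to the nearest H3K36me3 window (kb). Points are the 3 replicates and black bars the mean and SD (n = 3). In every replicate the adjoining windows are the highest, with a mean of 0.539, and the windows at 200 kb or more the lowest, with a mean of 0.266.

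H3K27me3 alone windows were mostly intergenic. With its midpoint in any annotated gene counted as genic, 40.2% of the windows were genic, against 48.9% of all valid windows, and 59.8% were intergenic. Protein-coding genes held 32.1% of the windows and noncoding transcript genes 7.40%. An exon lay at the midpoint of 2.84% of the windows and an intron at 37.4%. Among the other categories without H3K36me3, the genic share was 47.7% with H3K4me3 and H3K27me3, 35.9% with H3K4me3 alone and 31.8% without a mark. It was 77.3% for H3K36me3 alone. Within the categories without H3K36me3, the 40.2% of H3K27me3 alone thus lay below the 47.7% and above the 35.9% and 31.8%. The rule leaves out windows with H3K36me3, so the 48.9% over all valid windows includes windows that could not belong. The share of genic windows that were H3K27me3 alone was 15.2%, and the share of intergenic windows was 21.6%. H3K36me3 alone took 39.0% of the genic and 10.9% of the intergenic windows. These could not be H3K27me3 alone, so the order of both shares is tied to the rule. No preference for intergenic windows is drawn from it.

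The place with the lowest share was the start of coding genes. Of 19519 windows that held the start of a coding gene, 1310 were H3K27me3 alone (6.71%), while 25.7% had H3K4me3 and H3K27me3 and 35.2% had H3K4me3 alone. The H3K27me3 alone start windows held 17.2 CpG on average, against 67.4 in start windows with H3K4me3 and H3K27me3 and 60.5 in all start windows. Their H3K36me3 level was 0.383, 0.329 and 0.240 RPKM in replicates 1, 2 and 3, which is close to the level of all H3K27me3 alone windows in each replicate. Noncoding transcript genes had the highest share of the places counted, with 23.3% of their windows H3K27me3 alone. Intergenic windows 50 kb or more from a gene followed with 22.6%, and those within 10 kb of a gene had 18.7%. At 200 kb or more from any gene the share was 17.7%, and 55.4% of those windows had no mark. Intergenic H3K27me3 alone windows lay a median of 23.9 kb from the nearest gene.

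**Figure D3:**
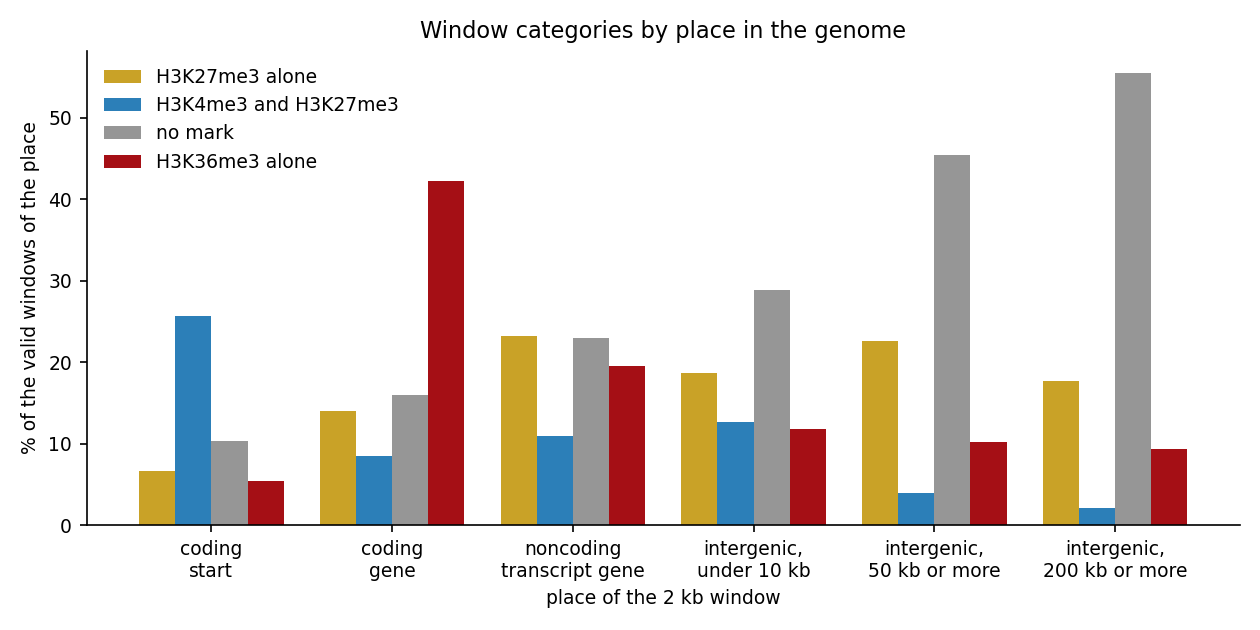
Share of the valid windows (%) of each place in the genome that fall in 4 categories. Bars start at 0 and a place can hold other categories that are not drawn. H3K27me3 alone (yellow) is lowest at coding starts, at 6.71%, and lies between 14.1% and 23.3% at the other places.

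The held-out level was also compared between genic and intergenic windows with H3K27me3 and without H3K4me3. Genic windows had 0.422, 0.398 and 0.306 RPKM in the replicate that was read, and intergenic windows had 0.388, 0.377 and 0.278 RPKM. Across replicates the 2 ranges overlapped, but within each replicate the genic windows were higher. The log2 ratio was 0.11 ± 0.03 (SD, n = 3), higher in 3 of 3 replicates, and the exact permutation test gave p = 0.25, and 0.25 after adjustment. With windows picked at a threshold of 0.5, the log2 ratio was smaller, at 0.06 ± 0.02 (SD, n = 3). The difference is small beside the ratio between windows near to and far from H3K36me3.

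Within coding genes, 14.1% of 500662 windows were H3K27me3 alone and 51.9% were called for H3K36me3. Along the 9975 coding genes of 20 kb or more, cut into 10 equal parts, the share of H3K27me3 alone windows was 15.7% in the first part, 16.0% in each of the next 2 parts, and 11.3% in the last. H3K36me3 windows went from 40.1% in the first part to 61.4% in the last. A window with H3K36me3 cannot be H3K27me3 alone, so both courses are tied by the rule. Counted by gene, 5579 of 20452 coding genes held at least 1 H3K27me3 alone window. Among 14266 coding genes with 5 or more windows, 1222 (8.57%) had 50% or more of their windows H3K27me3 alone, 145 had 90% or more, and 9680 had none. For comparison, 8354 (58.6%) had H3K36me3 in 50% or more of their windows. Of the 1222 genes, 781 held no H3K36me3 window. These genes were chosen by their share of windows without H3K36me3, so that count is partly fixed by the choice. Both kinds of window were found in the same gene as well, with at least 5 of each in 882 genes.

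The starts of the 1222 genes were looked up next. A start window was valid in 1219 of them. It was called for H3K4me3 and H3K27me3 in 722 (59.2%), for H3K27me3 alone in 377 (30.9%), for H3K4me3 alone in 42 and for no mark in 56. In all 14266 genes, a valid start window was H3K27me3 alone in 4.78% and had H3K4me3 and H3K27me3 in 26.8%. Since the start window is one of the gene's own windows, the first of these shares is partly fixed by the choice of genes.

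Genes covered almost wholly by the mark were of varied function. Among coding genes of 20 or more windows, Rgs5, a regulator of G protein signalling known from pericytes, had 20 of 20 windows H3K27me3 alone. Its H3K36me3 level was 0.414, 0.416 and 0.051 RPKM in replicates 1, 2 and 3, so replicate 3 was far below the others, on 85 reads in all. Cd44, a hyaluronan receptor, had 44 of 45 windows, with 0.341, 0.247 and 0.271 RPKM. Adra1a, an adrenergic receptor, had 65 of 67, and Cd86, a costimulatory molecule of antigen-presenting cells, had 30 of 31. Pax8, a transcription factor of thyroid and kidney, had 27 of 28. Plcz1, the sperm phospholipase that triggers egg activation, had 25 of 26. A630023A22Rik had 24 of 25, Slc22a4, a carnitine and ergothioneine transporter, 21 of 22, Ltbp1 184 of 193 and CK137956 20 of 21. Only Ltbp1 among these 10 genes held an H3K36me3 window, a single one. The genes were chosen for having few other windows, so this follows largely from the choice.

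The start window of 5 of these 10 genes was itself H3K27me3 alone (Rgs5, Cd44, Cd86, Plcz1 and A630023A22Rik), and that of the other 5 had H3K4me3 and H3K27me3. The start windows of the first set held 26, 40, 28, 29 and 24 CpG. Those of Adra1a, Pax8, Slc22a4, Ltbp1 and CK137956 held 50, 82, 73, 84 and 62 CpG, so the 2 sets did not overlap. RefSeq promoters, 250 bases before to 50 bases after the start, were matched for 7 of the 10 genes. For a gene of each set the promoter is printed on the gene's own strand, with CpG in capitals, at chr1:169655251-169655550 for Rgs5 and chr17:75005279-75005578 for Ltbp1 (GRCm38.p6, both genes on the plus strand). These 2 were chosen after their values were seen.
Rgs5 promoter: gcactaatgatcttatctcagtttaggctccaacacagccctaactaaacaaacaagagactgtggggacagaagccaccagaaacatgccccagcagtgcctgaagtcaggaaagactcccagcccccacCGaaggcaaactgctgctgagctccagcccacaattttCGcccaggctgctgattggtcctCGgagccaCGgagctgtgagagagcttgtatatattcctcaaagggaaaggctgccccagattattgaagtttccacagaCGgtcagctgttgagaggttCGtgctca
Ltbp1 promoter: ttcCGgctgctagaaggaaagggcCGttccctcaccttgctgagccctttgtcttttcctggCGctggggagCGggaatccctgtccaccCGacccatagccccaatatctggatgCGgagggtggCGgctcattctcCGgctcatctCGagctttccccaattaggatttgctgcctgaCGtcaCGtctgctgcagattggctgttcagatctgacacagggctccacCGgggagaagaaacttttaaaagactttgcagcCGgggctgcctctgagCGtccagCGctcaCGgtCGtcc
The Rgs5 promoter held 6 CpG and the Ltbp1 promoter 17, and the median of 32851 RefSeq promoters was 7. A second RefSeq promoter of Ltbp1, downstream at chr17:75178531-75178830 and outside the start window, held 7 CpG. The difference between the sets was not as clear in this shorter stretch. Cd44 and A630023A22Rik, with H3K27me3 alone at the start, had 6 and 1 CpG. Pax8, CK137956 and Slc22a4, with both marks, had 7, 3 and 29.

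In absolute number, the coding genes with the most H3K27me3 alone windows were long genes, the shortest annotated over 736 kb, and a count of windows follows length. Gpc6, a cell-surface proteoglycan, had 448 of 511 windows over 1051 kb, with 0.470, 0.474 and 0.358 RPKM in replicates 1, 2 and 3. Asic2, an acid-sensing ion channel, had 410 of 539, with 0.374, 0.316 and 0.237 RPKM. The levels of both genes were below 0.5 RPKM in every replicate. Lrrc4c, the netrin-G1 ligand, had 342 of 625, with 260 windows without a mark. Astn2, known from glial-guided neuronal migration, had 333 of 486, and the receptor tyrosine kinase Alk had 309 of 360. Galntl6, Rbms3 and Lsamp had 302, 297 and 288 windows.

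Fgfr2, a receptor of fibroblast growth factors, had the longest annotated span of this group, chr7:130162451-133123350. This span of 2961 kb held 339 H3K27me3 alone windows, which were 23.2% of its 1463 windows, and 695 windows with H3K36me3. Its level was 1.26, 1.28 and 1.26 RPKM. Every window of the span was counted, including any in other genes within it. The values describe the span and may not describe Fgfr2 alone. Lsamp likewise had 27.1% of 1064 windows, with 213 H3K36me3 windows. In the other genes named here the share was 54.7% or higher.

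The longest run, chr11:43862001-44034000, spanned 172 kb. It held 22.8% of its bases in Adra1b, an adrenergic receptor, with the start window of that gene included, and the rest in the noncoding gene Gm12153 or between genes. Its level was 0.366, 0.332 and 0.205 RPKM in replicates 1, 2 and 3, on 356 reads, and 4 of its 86 windows had no read in any replicate. Windows without a mark lay at both ends, and the nearest H3K36me3 window was 32 kb away.

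The second run, chr17:75246001-75400000, covered 154 kb at the 3′ side of Ltbp1, a protein that holds latent TGF-beta in the matrix. It had 0.353, 0.360 and 0.321 RPKM and adjoined a window with H3K36me3 and H3K27me3. Next came chr12:106880001-107026000, which was 146 kb long and held no coding gene. The nearest coding gene, 3110018I06Rik, was 463 kb away and the noncoding Gm16087 lay within. Its level was 0.353, 0.418 and 0.185 RPKM, with replicate 3 the lowest as in the first run.

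They were followed by 5 runs that lay wholly within coding genes. They covered 138 kb of Prkce, a protein kinase C (chr17:86508001-86646000), and 136 kb of Btbd11 (chr10:85460001-85596000). Clstn2, a synaptic calsyntenin, held a run of 134 kb (chr9:97508001-97642000), and Ebf1, a transcription factor of B cell and fat development, held another of 134 kb (chr11:44656001-44790000). Galnt14, an enzyme of mucin-type glycosylation, held one of 132 kb (chr17:73566001-73698000). The Ebf1 run had the lowest mean of these 5, with 0.249, 0.231 and 0.232 RPKM in replicates 1, 2 and 3, and the highest was the Btbd11 run with 0.435, 0.385 and 0.314. The values of the 2 runs did not overlap, but these runs were picked as the lowest and the highest by the same values. They rest on 208 reads for Ebf1 and 347 for Btbd11, and no difference is drawn from them.

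The last of the 10 were intergenic or nearly so. A run of 130 kb, chr8:89454001-89584000, held no annotated gene, and the nearest coding gene was Sall1, a transcription factor of kidney and limb development, at 410 kb. Its level was 0.341, 0.402 and 0.390 RPKM. A run of 124 kb, chr3:41388001-41512000, held the noncoding genes Platr4, Gm40040 and 1700052H01Rik and ended 43.7 kb from Jade1, a gene known for noncanonical imprinting. It had 0.296, 0.249 and 0.147 RPKM, the lowest mean of the 10 longest runs at 0.231 ± 0.076 (SD, n = 3). The run next in length spanned 120 kb on chromosome 6.

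The genes beneath the long runs carried the mark over most of their length. Ebf1 had 182 of 195 windows H3K27me3 alone, Galnt14 99 of 108, Clstn2 248 of 294, Prkce 200 of 245, Adra1b 48 of 64 and Btbd11 99 of 135. No H3K36me3 window lay in Ebf1 or Adra1b, while Prkce held 15. At their starts, Ebf1, Galnt14, Clstn2, Prkce and Btbd11 had H3K4me3 and H3K27me3, and Adra1b had H3K27me3 alone. Over the 100 longest runs, between 74 and 172 kb, 62.9% of the windows were genic, 63 runs met a coding gene, 42 were wholly genic and 15 were wholly intergenic. They were spread over 19 chromosomes and 2 of them were on X.

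Chromosome X stood apart. H3K27me3 alone windows were 11.5% of its valid windows, and on the autosomes the share went from 14.7% on chromosome 10 to 23.1% on chromosome 14. Windows without a mark made up 46.2% of X. The H3K36me3 level of H3K27me3 alone windows on X was 0.556, 0.421 and 0.375 RPKM in replicates 1, 2 and 3. In each replicate it was above every autosome, where the means over replicates lay between 0.303 on chromosome 3 and 0.346 on chromosome 14. The median distance to H3K36me3 was 12 kb on X and 34 kb over the autosomes, and 35.1% of the X windows lay in runs of 5 or more. The longest run of X covered 80 kb at Tspan7, a tetraspanin of neurons (chrX:10532001-10612000). Another long run of X covered 50 kb at Hs6st2, a heparan sulfate sulfotransferase (chrX:51376001-51426000). Their levels were 0.354 ± 0.087 and 0.504 ± 0.025 RPKM (SD, n = 3). A single chromosome was set beside 19, and no test was made.

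**Figure D4:**
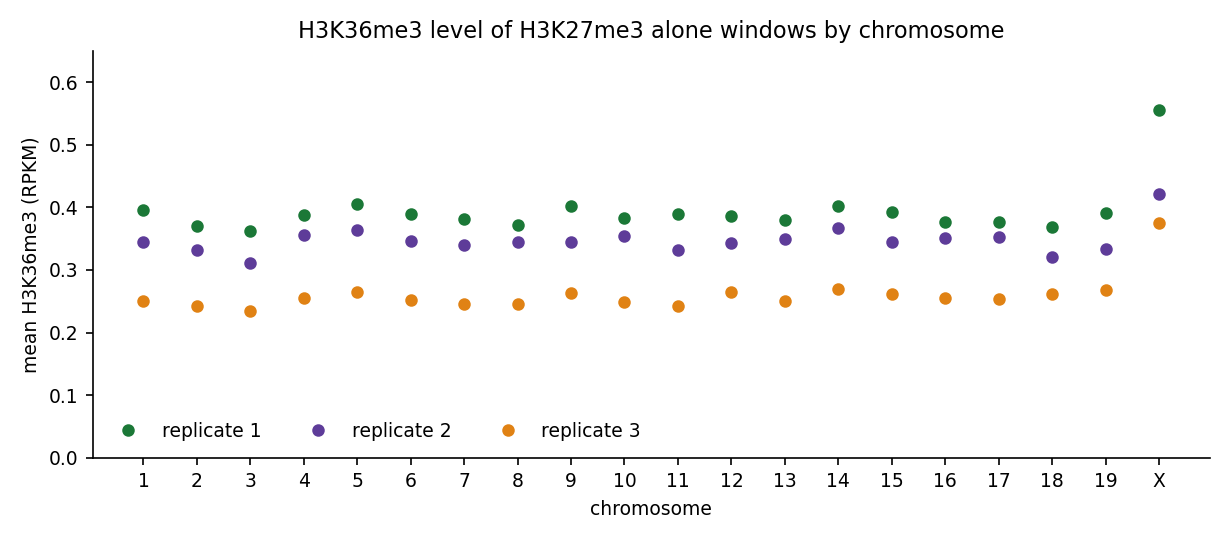
Mean H3K36me3 (RPKM, linear axis from 0) of H3K27me3 alone windows on each chromosome, with a point for each of the 3 replicates. X is above every autosome in each replicate, at 0.556, 0.421 and 0.375 RPKM.

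Gene groups were then described by the share of their windows that were H3K27me3 alone, beside the 14.1% over all coding gene windows. Of all coding gene windows, 51.9% had H3K36me3 and could not be H3K27me3 alone. The share of a group therefore also depends on how many of its windows had H3K36me3. The largest share was found for 18 genes known for noncanonical imprinting, with 507 of 792 windows (64.0%) and 22 windows with H3K36me3. These genes are known for H3K27me3 in oocytes, so their share is not independent evidence. Of the 18, 11 had 50% or more of their windows H3K27me3 alone, against 1926 of 20452 coding genes with a window. Epas1, a hypoxia-inducible factor subunit, had 38 of 40 windows and the haematopoietic factor Runx1 had 103 of 112. Gab1 and Sfmbt2, both with roles in placenta, had 50 of 58 and 77 of 97. Rbms1 had 83 of 107, Smoc1 62 of 80 and Slc38a4, a placental amino acid transporter, 22 of 31. Xist, the noncoding RNA of X inactivation, had 9 of 12. Sfmbt2 had 0.322, 0.257 and 0.147 RPKM in replicates 1, 2 and 3, and Slc38a4 had 0.425, 0.665 and 0.557. Slc38a4 was the highest of the group in mean level and held 5 H3K36me3 windows, its start window among them.

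Other genes of that list had few such windows. Jade1 had 5 of 30 windows H3K27me3 alone and 18 with H3K4me3 and H3K27me3. Bbx had 1 of 120, with 49 windows of H3K4me3 alone and 48 without a mark. Sox21 had none of 2 windows, and both of these had H3K4me3 and H3K27me3. For Jade1 the long run described above lay outside the gene.

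Among lineage transcription factors and Hox genes, H3K27me3 alone windows lay in a minority of the genes, as in all coding genes. Such windows were held by 39 of 102 lineage factor genes and 9 of 39 Hox genes, against 5579 of 20452 coding genes (27.3%). Lineage transcription factors had 221 of 911 windows (24.3%) H3K27me3 alone and 47.4% with both marks. Pax7, a factor of muscle stem cells, had 37 of 48 windows, and Pax5, a factor of B cells, had 36 of 93. Zic2 and Zic5 had none, as had 63 of the 102 lineage factor genes with a window. Genes of the Hox clusters had 23 of 143 windows (16.1%), near the share of all coding genes, and 76.9% of their windows had both marks. Hoxa3 had 9 of 22 and Hoxb3 4 of 12, and 30 of the 39 genes had none. Wnt, Fgf and Bmp ligands had 407 of 1649 windows (24.7%). Fgf12 and Fgf14, which act within cells on sodium channels rather than as secreted ligands, held 111 and 110 of them. Wnt8a and Wnt9a had none, with H3K36me3 in 3 of 3 and 11 of 14 windows.

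Genes of neurons were above the share of all coding genes as groups, and their members were uneven. Windows with H3K36me3 made up 26.8% of synaptic adhesion genes and 33.5% of potassium channel subunits, against 51.9% of all coding gene windows. They made up 26.3% of glutamate and GABA receptor subunits and 31.3% of cadherins. The higher shares of H3K27me3 alone are not independent of this, and no preference of the mark for these groups is drawn from them. Synaptic adhesion genes had 3896 of 16141 windows (24.1%), of which Lrrc4c held 342. Potassium channel subunits had 23.5%, with Kcnh8 at 135 of 182 windows and Kcnh7 at 81 of 240. Glutamate and GABA receptor subunits had 22.5%, with 180 of 442 windows in Grm7 and 130 of 233 in Gabrb1. Grm8 had none of 415, and 352 of its windows had H3K36me3. Classical and clustered cadherins had 20.2%. Pcdh9 had 281 of 428 windows and Pcdh7 120 of 206, whereas Pcdhgc4 and Pcdhgc5 had none.

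Clustered gene families of sensory and epithelial tissues differed from each other. Keratins and keratin-associated proteins had 64 of 207 windows (30.9%), with 7 of 8 in Krt23 and 4 of 4 in Krt32. Olfactory receptors had 706 of 3684 windows (19.2%), while 61.6% had no mark and 8.01% had H3K36me3. Of 1082 olfactory receptor genes with a window, 719 had no H3K27me3 alone window and 209 had 50% or more. Of all 20452 coding genes with a window, 14873 had none and 1926 had 50% or more. Vomeronasal and taste receptors were below the share of all coding genes, with 130 of 2063 windows (6.30%) and 81.1% without a mark. Vmn2r23 had 9 of 21 windows and Vmn2r97 none of 19. Cytochrome P450 genes had 171 of 1146 windows (14.9%), near the background, with 12 of 15 in Cyp3a13.

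The labelled cell type was checked with marker genes. None of the 78 windows of 10 oocyte genes was H3K27me3 alone, and 91.0% had H3K36me3. Zp2 and Zp3, which encode proteins of the zona pellucida, had H3K36me3 in 10 of 10 and 4 of 4 windows. The 8 granulosa cell genes had 96 of 257 windows (37.4%) H3K27me3 alone, and these lay in 2 genes. Fshr, the receptor of follicle-stimulating hormone, had 75 of 101 and Cyp19a1, the aromatase, 21 of 51. The other granulosa cell genes had none, and Kitl and Nr5a2 had H3K36me3 in 27 of 42 and 55 of 59 windows. Genes of the Polycomb complexes themselves had 5 of 544 windows (0.919%) H3K27me3 alone and 82.2% with H3K36me3, with 19 of 20 windows for Suz12.

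**Figure D5:**
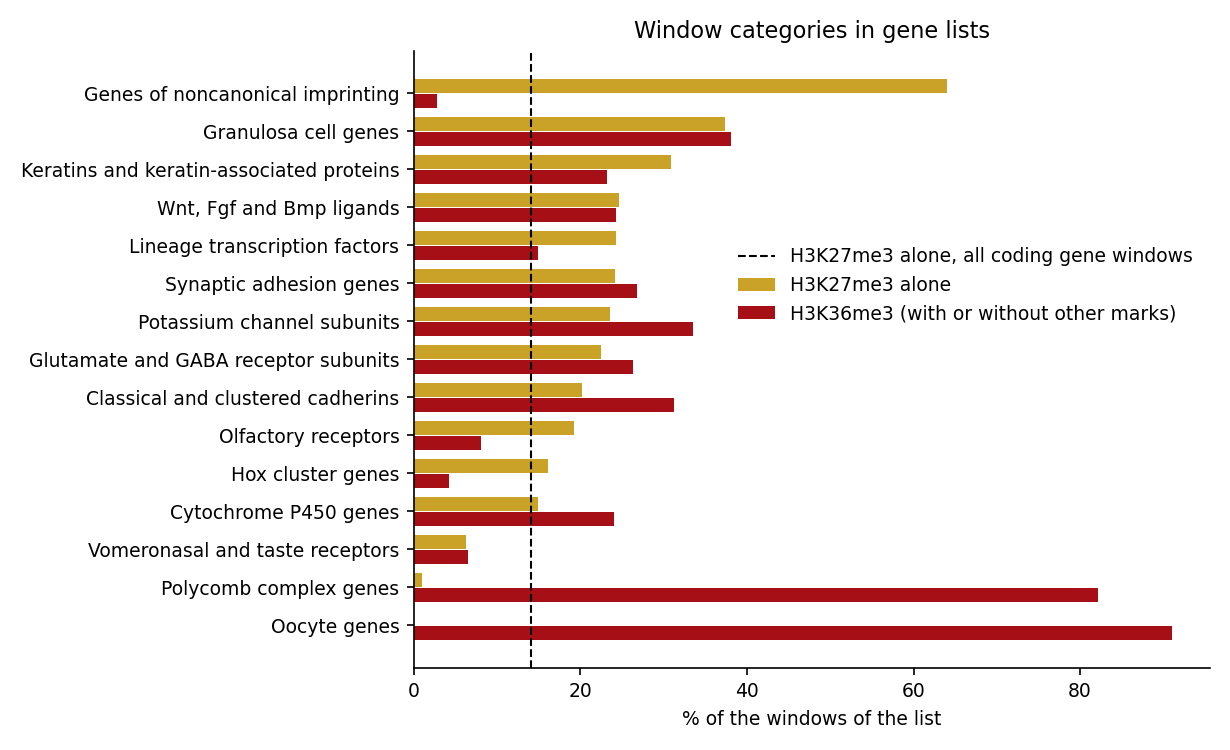
Share of the windows of each of 15 gene lists (%, bars from 0) that were H3K27me3 alone (yellow) or called for H3K36me3 with or without other marks (red). The dashed line is the share of H3K27me3 alone over all coding gene windows, 14.1%. Noncanonical imprinting genes are the highest for H3K27me3 alone at 64.0%, and oocyte genes are at 0 with 91.0% H3K36me3.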

How the data were processed

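H3K36me3 was profiled in 3 replicate pools of GV oocytes. Per the methods of the study, reads were trimmed and mapped to GRCm38 (Bowtie2 2.2.9 in the submitters' processing notes). The authors counted them in SeqMonk over end-to-end windows of 2 kb, removed windows with very low or very high input signal, and deposited RPKM values per replicate, on a linear scale. Removal of duplicates is not given in the sources used here, so reads may include PCR copies. All deposited RPKM values were whole multiples of the value of 1 read (0.136, 0.396 and 0.338 in replicates 1, 2 and 3, tolerance 0.01 reads, 100% of values), from which reads were recovered. Whether they are divided by window length is unsettled, so the threshold of 1 holds for the deposited scale. The second table names marks per window and holds no measurement. Its H3K36me3 call was identical to a mean above 1 in every valid window. Windows it does not list were taken as unmarked.

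Runs were end-to-end windows of 1 category, ended by a window that was not valid. Genes came from GENCODE M21, and all windows fell within the lengths of its chromosomes in GRCm38. CpG, GC and soft-masked bases were counted in the RefSeq GRCm38.p6 genome with pysam 0.24.0, the remaining steps used pandas 2.3.3, numpy 2.4.6 and scipy 1.17.1, and the scripts were tested on simulated data. Held-out levels were log2 ratios of mean RPKM without a pseudocount, tested two-sided with an exact permutation test that flips the signs of the 3 replicates' ratios and adjusted by Benjamini-Hochberg over 3 tests. Labels do not say whether the pools came from separate animals, so the spread may be technical. Named genes were those in the 10 longest runs, the 10 with the most windows, the 10 of at least 20 windows with the highest share, up to 4 members of each of 15 gene lists with the most and the fewest windows, and genes of the 3 longest runs on X. Some genes that meet this rule are not reported here. Further noncanonical imprinting genes, the marks at starts and the 1 Mb bins were chosen after their values were seen. The windows, lists and tests were chosen with earlier results of these data known. Alternatives were the threshold, the rules for runs, genes and distances, and leaving out each replicate.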

Additional observations from a re-analysis of the deposited data

How the results depend on the processing

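Of 58 recomputed values for the main results, 41 kept their direction, moved by less than the spread between replicates or, for the number of windows and runs, stayed within 1.5 times. The number of H3K27me3 alone windows was 171020 at a threshold of 0.5 and 173726 with 1 RPKM or less in each replicate. With up to 5 other windows bridged, 83.2% of H3K27me3 alone windows lay in runs of 5 or more, with 30491 runs and a longest run of 582 kb. With H3K4me3 windows included the share was 66.1% and the longest run 416 kb, and with 1 RPKM or less in each replicate they were 32.6% and 66 kb. The genic share was 32.1% with protein-coding genes only, 42.4% with any overlap and 43.9% in runs of 5 or more, where CpG per window was 15.8. The median distance was 108 kb to a run of 3 or more H3K36me3 windows, 86 kb to windows above 1 in each replicate and 110 kb to windows above 2, and between 18 and 34 kb when a replicate was left out. At a threshold of 0.5, the held-out log2 ratio of H3K27me3 against unmarked windows reversed to 0.23. The causes were not tested. Of 60 values for gene lists, 55 moved by less than the spread. No paired analysis was possible because all samples belong to 1 group, and the held-out ratios were already taken within each replicate. Depth limits single windows, with a median of 3, 0 and 0 reads in replicates 1, 2 and 3.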

Other observations

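On a scale of 1 Mb, H3K27me3 alone windows were gathered in some regions. Over 2507 bins of 1 Mb with at least 250 valid windows, the median share of H3K27me3 alone was 13.6%, 135 bins had 50% or more and 19 had none. The bins with 50% or more had a median of 8.37% H3K36me3 windows, against 29.8% over all bins. H3K27me3 alone windows lack H3K36me3 by the rule, so the lower median is partly fixed by the choice of bins. The highest share, 436 of 484 windows (90.1%), was at chr9:112000001-113000000 with Arpp21, a cAMP-regulated phosphoprotein of neurons, at 0.444, 0.400 and 0.337 RPKM in replicates 1, 2 and 3. It was followed by the bin of Gpc6 at chr14:117000001-118000000 (87.4%), of the DNA repair gene Mgmt at chr7:136000001-137000000 (84.2%), of Bcl11b, a transcription factor of T cells, at chr12:107000001-108000000 (83.4%) and of Ltbp1 at chr17:75000001-76000000 (80.0%). The Mgmt bin also held 59 H3K36me3 windows (11.9%). The third longest run described in the report, which held no coding gene, reached into the bin of Bcl11b.

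With up to 5 windows of other categories without H3K36me3 bridged, the longest stretch was chr18:68758001-69340000, at 582 kb, with 250 of 289 valid windows H3K27me3 alone and no coding gene. It was followed by 558 kb with AI593442 (chr9:52182001-52740000) and 552 kb with Rbms1 (chr2:60854001-61406000).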
